A study of Rattus norvegicus with 26 samples.

Results

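Bone morphogenetic proteins (BMPs) are secreted ligands of the TGF-β superfamily. They bind pairs of type I and type II receptor kinases, the receptors phosphorylate Smad1, Smad5 and Smad9, and these enter the nucleus with Smad4. The Id genes are textbook direct targets of that pathway. Their proteins have a helix-loop-helix but no DNA-binding region, so they pair with E proteins such as Tcf3 and Tcf4 and hold them off DNA. Secreted antagonists (noggin, chordin, gremlins, follistatin) bind the ligands outside the cell. Both BMPs and Id proteins are known in the vessel wall, where BMP signals act on smooth muscle cell growth and phenotype.

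The members were 10 genes chosen by name: the ligands Bmp2, Bmp4, Bmp6 and Bmp7, the receptors Bmpr1a and Bmpr2, and Id1, Id2, Id3 and Id4. A gene was represented by the probe that carries its symbol as the gene name on the array, and where several did, by the brightest over the 26 arrays. By that rule 9 of the 10 genes were measured, with 16 of the 41012 gene probes. No probe bore the name Bmpr2, and it was not analysed here. All 9 brightest probes were among the 24442 probes tested, a set that required a signal well above background on all arrays of 1 group or more.

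RNA came from 2 clonal lines of rat multipotent adult progenitor cells (rMAPCs) that express Oct4. The donors of both were female Fischer rats, and the source was bone marrow, of an animal 3 weeks old for Cl19 and of the E18 stage for 3c3. Both lines were cultured with TGF-β (TGFβ1) and PDGF-BB for 6 days, in serum-free medium by the methods, and sampled on d0, d2, d4 and d6 with 3 arrays per line and day. Commercial RNA on 2 arrays, called primary smooth muscle cells (SMCs) below, served as the mature reference. The labels call it rat aortic RNA of 1 vendor and the methods RNA of rat primary SMCs of another, and its strain, sex and age were not given in the sources used here. Each line is 1 clone. The replicates are labelled only by number, so that the p-values measure the spread between these samples, which may be partly technical. In the bulk RNA of these cultures, fewer cells that express a gene and less RNA per cell cannot be told apart. Each later day was compared with d0, and time in culture and the effect of the factors cannot be told apart.

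On d6 the summed signal of 7 smooth muscle markers lay between 14.83 and 16.16 on the log2 scale in the rMAPC lines, against 10.52 to 11.13 on d0 and 16.58 to 16.62 in primary SMCs, so that the labelled course was visible. The sum weighs the brightest gene most, here Tagln, with d6 means of 15.85 in Cl19 and 14.78 in 3c3. Cnn1, Des, Smtn and Lmod1 also rose in both lines. Actg2 rose in 3c3 and changed by 0.30 ± 0.33 (limma adjusted p = 0.47) in Cl19. Myocd, a dim probe, changed by 0.05 ± 0.32 (adjusted p = 0.92) in Cl19 and by -1.20 ± 0.32 (adjusted p = 0.0040) in 3c3. A list of 6 genes of undifferentiated, hypoblast-like rMAPCs summed to 15.18 to 15.43 on d0, 13.94 to 14.90 on d6 and 10.27 to 10.30 in primary SMCs. Of that list Pou5f1, Gata6, Sox7 and Sox17 fell in both lines by d6, and Gata4 in Cl19 only. Foxa2 rose in both, by 0.66 ± 0.17 in Cl19 and 0.50 ± 0.17 in 3c3 (adjusted p = 0.0031 and 0.022). The 5 epithelial markers summed to between 17.03 and 17.16 on d0 and between 17.81 and 18.08 on d6, against 10.49 to 10.55 in primary SMCs. The brightest of them was Krt18, with d0 means of 16.97 in Cl19 and 17.00 in 3c3. All 5 were called higher on d6 in both lines. Cdh1 rose by 3.28 ± 0.29 in Cl19 and 4.02 ± 0.29 in 3c3 (adjusted p = 2.1e-08 and 2.9e-09), and Krt18 by 0.52 and 0.38. The 5 leukocyte markers stood at 7.82 to 8.10 on d0 and 9.66 to 11.01 on d6 of 3c3, and at 7.52 to 7.93 on d6 of Cl19. That rise lay in Csf1r (6.24 ± 0.56, adjusted p = 4.6e-08), while Ptprc, Cd68 and Cd14 did not pass the test in 3c3 and Itgam was not well above background on d0 or d6. The 5 endothelial markers summed to 7.74 to 8.02 on d0 and 5.66 to 6.23 on d6 of Cl19. In 3c3 they summed to 6.90 to 7.21 on d0 and 6.54 to 7.07 on d6. The 2 erythroid markers summed to 6.76 to 6.89 on d0 and 2.69 to 3.80 on d6 of Cl19. In 3c3 these 2 summed to 5.07 to 5.75 on d0 and 2.92 to 3.68 on d6. The part of these marker lists in the changes of the members was not tested. The arrays of a line lay on 3 slides, each with the 4 days of 1 replicate in the same order, so that day and position on the slide cannot be told apart, nor can line and scan day. On the slide of 3c3 replicate 3 the negative control features had a median signal of 1.77 to 5.30, against 0.986 to 1.24 on the other 22 arrays. The array labelled Cl19 d2 replicate 1 lay nearer to the 3c3 d2 arrays (root mean square log2 distance 0.382 to 0.538) than to the other Cl19 d2 arrays (0.876 to 0.917). Results for Cl19 on d2 are therefore given with and without it.

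The ligand results rest on the following 60-base probes, each in the coding part of its message and shown 5′ to 3′ as printed on the array, with positions on the rat build rn4. Bmp2 had 2 probes, and both are shown because they differ in brightness.
Bmp2, chr3:121381127-121381186, plus strand: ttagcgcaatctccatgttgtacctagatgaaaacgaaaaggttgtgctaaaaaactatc
Bmp2 (dimmer probe), chr3:121380511-121380570, plus strand: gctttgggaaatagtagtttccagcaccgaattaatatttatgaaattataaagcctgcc
Bmp4, chr15:22283916-22283975, minus strand: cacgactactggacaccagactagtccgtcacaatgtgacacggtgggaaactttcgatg
Bmp7, chr3:163727379-163727438, minus strand: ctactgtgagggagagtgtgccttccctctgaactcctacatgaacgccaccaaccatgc
Bmp6, chr17:32380203-32380262, minus strand: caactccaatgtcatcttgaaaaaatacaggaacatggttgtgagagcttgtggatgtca

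Bmp2 and Bmp4 rose in both rMAPC lines from d2 on. Bmp7 rose in Cl19 and did not pass the test in 3c3, and Bmp6 fell in Cl19 and rose in 3c3. The receptor Bmpr1a and Id1 passed the test on no day in either line, but Bmpr1a did so on d4 of both with the slide as a block. Id4 fell by d6 in both lines, and more in Cl19, while Id2 and Id3 changed by smaller amounts and on different days in each line. All levels below are quantile-normalized log2 signals, and the changes are differences of such levels with the SE of 1 limma fit over all arrays and Benjamini-Hochberg adjusted p-values over all probes tested.

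**Figure D1:**
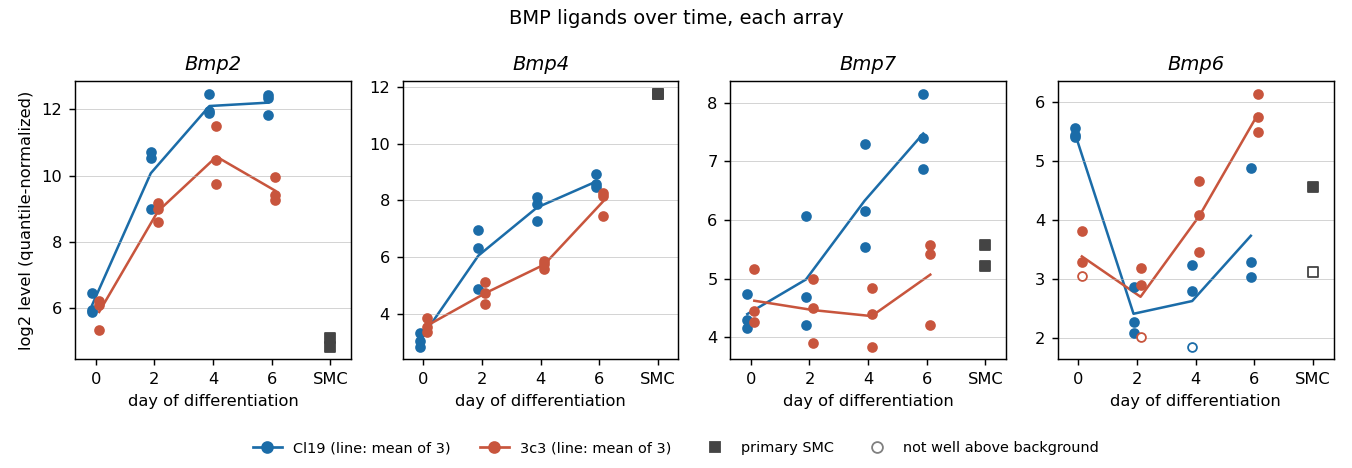
Log2 level of the 4 BMP ligands (vertical axis, a separate scale in each panel) on each array by day of differentiation and in primary SMCs (SMC). Points are arrays, lines join the means of 3 arrays, and open symbols mark arrays where the probe was not well above background. Bmp2 and Bmp4 climb in both lines, whereas Bmp6 ends at 5.48 to 6.14 in 3c3 and 3.03 to 4.89 in Cl19.

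Bmp2 encodes a ligand that directs bone and heart formation. In Cl19 its levels were 5.90, 6.45 and 5.94 on d0, 8.99, 10.70 and 10.52 on d2, 11.94, 12.47 and 11.88 on d4, and 12.44, 12.34 and 11.81 on d6. In 3c3 they were 5.34, 6.10 and 6.21 on d0, 8.60, 9.17 and 8.99 on d2, 9.76, 11.48 and 10.47 on d4, and 9.25, 9.96 and 9.42 on d6. Every array of a later day lay above every d0 array of its line. By d6 Bmp2 had risen by 6.10 ± 0.42 (SE, n = 3 against 3, limma adjusted p = 6.8e-10) in Cl19, which is 68.7-fold, and by 3.66 ± 0.42 (adjusted p = 8.2e-07), or 12.6-fold, in 3c3. The rise was already 3.97 ± 0.42 (adjusted p = 1.0e-06) on d2 of Cl19, and 4.51 ± 0.38 (adjusted p = 7.5e-08) without the array that stood apart. In 3c3 the d2 rise was 3.03 ± 0.42 (adjusted p = 3.0e-05). From d4 to d6 the level moved by 0.10 ± 0.42 (adjusted p = 0.97) in Cl19 and by -1.02 ± 0.42 (adjusted p = 0.13) in 3c3, neither past the threshold. The d6 rise was larger in Cl19 by 2.44 ± 0.59 (limma interaction, adjusted p = 0.0059). That difference had an adjusted p of 0.062 without the slide of 3c3 replicate 3 and 0.073 with both Bmp2 probes averaged.

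The dimmer Bmp2 probe was nowhere well above background on d0. On d6 it was well above it on all 3 arrays of Cl19, at levels of 5.05, 6.03 and 4.54, and on 1 of 3 arrays of 3c3, at 1.42, 4.25 and 0.40. In Cl19 it therefore rose at least 7.09-fold (adjusted p = 0.0013), where the bound sets the d6 mean against the lowest signal well above background on each d0 array. In 3c3 the d6 change of this dimmer probe did not pass the test (adjusted p = 0.20), and no fold is given.

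Bmp4, a ligand of mesoderm and vessel development, was higher than on d0 on each later day of both lines. Cl19 had 3.31, 3.02 and 2.84 on d0, 4.86, 6.97 and 6.32 on d2, 7.86, 7.27 and 8.12 on d4, and 8.57, 8.95 and 8.46 on d6. In 3c3 the levels were 3.84, 3.54 and 3.34 on d0, 5.11, 4.34 and 4.74 on d2, 5.75, 5.58 and 5.87 on d4, and 8.27, 8.14 and 7.44 on d6. The d0 and d2 arrays did not overlap in either line, and in 3c3 the d6 arrays stood clear of the d4 arrays. The d6 rise was 5.60 ± 0.37 (n = 3 against 3, adjusted p = 4.9e-10), or 48.6-fold, in Cl19 and 4.38 ± 0.37 (adjusted p = 2.2e-08), or 20.8-fold, in 3c3. By d2 Cl19 had gained 3.00 ± 0.37 (adjusted p = 7.9e-06), or 3.59 ± 0.29 (adjusted p = 4.4e-08) without the array that stood apart, and 3c3 1.16 ± 0.37 (adjusted p = 0.035). From d4 to d6 3c3 gained a further 2.22 ± 0.37 (adjusted p = 0.0011), and the step of Cl19, 0.91 ± 0.37 (adjusted p = 0.17), did not pass the test. The lines' d2 changes differed by 1.84 ± 0.53 (adjusted p = 0.19), and by 2.43 (adjusted p = 0.0012) without Cl19 d2 replicate 1. Their d6 changes differed by 1.23 ± 0.53 (adjusted p = 0.13). That array is not part of the d6 contrast, and leaving it out did not move the difference of 1.23. Only the SE and the adjusted p, then 0.025, changed. With normexp background correction, which lifts dim signals by an offset, the d6 rises of Bmp4 were 2.74 and 2.05 and those of Bmp2 4.87 and 2.50, all past the threshold.

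Bmp7 encodes a ligand of kidney and eye development. In Cl19 it went from 4.29, 4.16 and 4.74 on d0 through 4.22, 4.69 and 6.06 on d2 and 5.54, 7.29 and 6.16 on d4 to 7.40, 6.87 and 8.15 on d6. In 3c3 the d0 levels of 4.45, 4.26 and 5.17 overlapped those of each later day, with 5.58, 4.21 and 5.42 on d6. On d2 the Cl19 change was 0.59 ± 0.51 (adjusted p = 0.47), or 0.97 (adjusted p = 0.22) without the array that stood apart. The Cl19 rise passed the test on d4 (1.93 ± 0.51, adjusted p = 0.0038) and d6 (3.07 ± 0.51, n = 3 against 3, adjusted p = 3.9e-05, 8.42-fold), whereas the 3c3 change on d6 was 0.44 ± 0.51 (adjusted p = 0.50, 95% confidence interval -0.61 to 1.50). The d6 changes differed by 2.63 ± 0.71 (adjusted p = 0.014). Without the slide of 3c3 replicate 3 that adjusted p was 0.055, and under normexp the Cl19 rise was 1.38.

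Bmp6 encodes a ligand known for its role in iron balance, through the induction of hepcidin. The Cl19 levels were 5.45, 5.40 and 5.57 on d0, 2.87, 2.27 and 2.09 on d2, 3.24, 1.86 and 2.79 on d4, and 3.28, 4.89 and 3.03 on d6. In 3c3 they were 3.28, 3.82 and 3.05 on d0, 3.18, 2.90 and 2.03 on d2, 4.08, 3.46 and 4.66 on d4, and 5.48, 6.14 and 5.75 on d6. This dim probe exceeded background clearly on 22 of 26 arrays, and on 2 of 3 arrays of Cl19 d4, 3c3 d0 and 3c3 d2. Every later array of Cl19 lay under every d0 array, with a change of -3.06 ± 0.48 (adjusted p = 9.6e-05) on d2, or -3.29 ± 0.53 (adjusted p = 1.3e-04) without the array that stood apart, and -1.74 ± 0.48 (n = 3 against 3, adjusted p = 0.0046), 3.34-fold lower, on d6. The rise of 3c3 came late, with 2.41 ± 0.48 (adjusted p = 3.5e-04), or 5.30-fold, on d6 and 0.68 ± 0.48 (adjusted p = 0.28) on d4. The 2 lines thus moved in opposite directions, and the d6 changes differed by -4.15 ± 0.67 (Cl19 minus 3c3, adjusted p = 2.0e-04). On d0 Bmp6 stood 2.09 ± 0.48 higher in Cl19 than in 3c3 (adjusted p = 0.017). The d0 call was lost without the slide of 3c3 replicate 3 and without each of 5 of the 6 d0 arrays in turn. The d6 interaction kept its call in all 35 alternatives, some of which left out an array outside that contrast and could not move its estimate. Under normexp the interaction was -1.18, and the d6 changes were -0.49 in Cl19 and 0.69 in 3c3, both past the threshold.

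Bmpr1a, a type I receptor of Bmp2 and Bmp4, lay between 8.55 and 9.64 on all 24 rMAPC arrays. The d6 changes were -0.08 ± 0.22 (adjusted p = 0.80, 95% confidence interval -0.54 to 0.39) in Cl19 and -0.09 ± 0.22 (adjusted p = 0.76, interval -0.56 to 0.37) in 3c3. On d2 and d4 the changes were 0.29 ± 0.22 (adjusted p = 0.41) and 0.32 ± 0.22 (adjusted p = 0.26) in Cl19 and 0.19 ± 0.22 (adjusted p = 0.64) and 0.28 ± 0.22 (adjusted p = 0.35) in 3c3. They were above 0 in all 3 slides of each line on both days. With the slide as a block the SE was 0.10, and the adjusted p became 0.036 and 0.012 in Cl19 and 0.16 and 0.031 in 3c3. The block fit kept Cl19 d2 replicate 1. Without that array and without the block, the Cl19 change on d2 was 0.38 ± 0.25 (adjusted p = 0.31). A second, dimmer probe changed on d6 by -0.40 ± 0.24 (adjusted p = 0.17) and -0.22 ± 0.24 (adjusted p = 0.48).

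**Figure D2:**
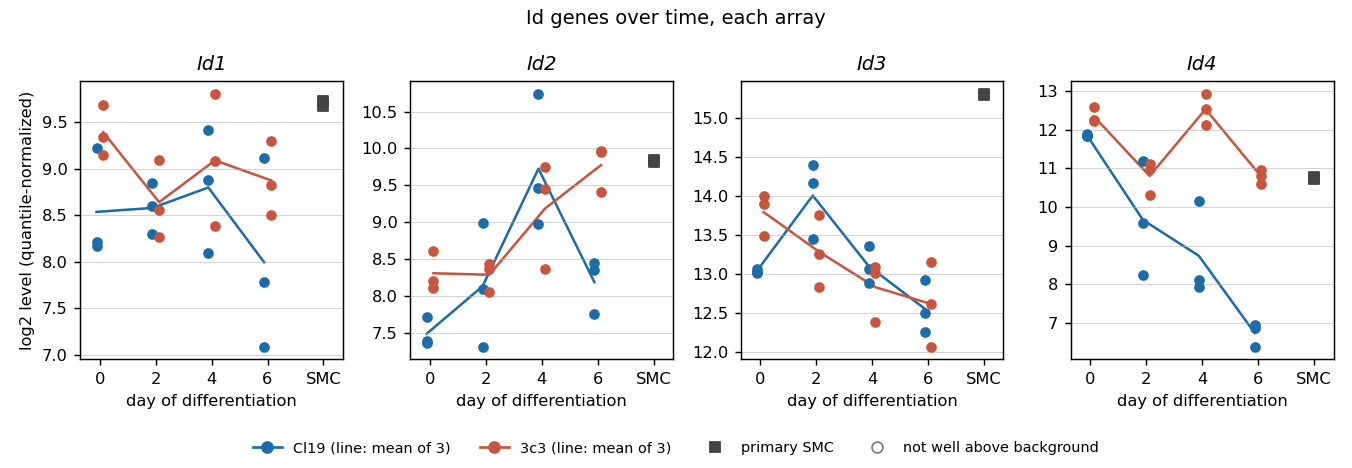
Log2 level of the 4 Id genes (vertical axis, a separate scale in each panel) on each array by day and in primary SMCs (SMC). Points are arrays and lines join the means of 3 arrays. Id4 falls in Cl19 to 6.39 to 6.95 on d6 and ends at 10.59 to 10.95 in 3c3, next to the 10.73 and 10.77 of primary SMCs.

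Among the Id genes, the widest change was that of Id4, which is known from neural and testicular stem cells. Cl19 had 11.83, 11.83 and 11.89 on d0, 11.18, 8.23 and 9.58 on d2, 10.16, 7.93 and 8.12 on d4, and 6.95, 6.89 and 6.39 on d6. In 3c3 the levels were 12.58, 12.24 and 12.21 on d0, 10.32, 10.98 and 11.11 on d2, 12.13, 12.93 and 12.53 on d4, and 10.80, 10.59 and 10.95 on d6. The d6 arrays lay below all d0 arrays in both lines, and the d4 arrays of 3c3 were back within reach of d0. By d6 Id4 had fallen by 5.11 on the log2 scale in Cl19 (SE 0.55, n = 3 against 3, adjusted p = 2.2e-07), 34.5-fold, and by 1.57 in 3c3 (SE 0.55, adjusted p = 0.023), 2.96-fold. The d6 changes differed by -3.54 ± 0.77 (adjusted p = 0.0028). The second Id4 probe fell by 4.97 (SE 0.53, adjusted p = 2.0e-07) and by 1.63 (SE 0.53, adjusted p = 0.016). On d2 the change in 3c3 was -1.54 ± 0.55 (adjusted p = 0.055, or 0.021 with the slide as a block) and that in Cl19 was -2.19 ± 0.55 (adjusted p = 0.0064), or -2.94 ± 0.49 (adjusted p = 1.6e-04) without the array that stood apart. The 3c3 call on d6 was lost without d0 replicate 1 (adjusted p = 0.071), without d6 replicate 2 (adjusted p = 0.066) and without the slide of replicate 3 (adjusted p = 0.081), at changes of -1.45, -1.47 and -1.72.

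Id1, the Id gene most often used as a readout of BMP receptor activity, passed the test on no day. Its levels in Cl19 were 8.21, 9.23 and 8.17 on d0 and 7.78, 9.11 and 7.09 on d6, and in 3c3 9.15, 9.68 and 9.35 on d0 and 8.50, 9.30 and 8.83 on d6. The d0 and d6 arrays overlapped in both lines. The d6 changes were -0.54 ± 0.45 (n = 3 against 3, adjusted p = 0.34, 95% confidence interval -1.49 to 0.40) in Cl19 and -0.52 ± 0.45 (adjusted p = 0.37, interval -1.46 to 0.43) in 3c3. Within slides all 3 differences of each line lay below 0, from -1.09 to -0.12 in Cl19 and from -0.66 to -0.38 in 3c3. Without Cl19 d6 replicate 2 the Cl19 change was -1.10 (adjusted p = 0.043).

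Id2 showed a peak in Cl19 and a late rise in 3c3. The levels in Cl19 were 7.36, 7.71 and 7.39 on d0, 8.10, 7.31 and 8.99 on d2, 10.74, 8.97 and 9.46 on d4, and 8.35, 8.45 and 7.76 on d6. Those of 3c3 were 8.20, 8.11 and 8.61 on d0, 8.36, 8.06 and 8.44 on d2, 8.37, 9.45 and 9.74 on d4, and 9.41, 9.95 and 9.97 on d6. On this brightest probe all d4 arrays of Cl19 were above all its d0 and d6 arrays. On d2 the Cl19 change was 0.65 ± 0.42 (adjusted p = 0.31), or 0.66 (adjusted p = 0.37) without the array that stood apart. In Cl19 Id2 rose by 2.24 ± 0.42 (n = 3 against 3, adjusted p = 2.1e-04) to d4, fell by 1.54 (SE 0.42, adjusted p = 0.031) from d4 to d6, and stood 0.70 ± 0.42 (adjusted p = 0.17) from d0 on d6. In 3c3 the d6 rise was 1.47 ± 0.42 (adjusted p = 0.0071). The d6 changes of the lines differed by -0.77 ± 0.59 (adjusted p = 0.48). The other 2 Id2 probes changed on d6 by 0.56 and 0.30 in Cl19 (adjusted p = 0.29 and 0.66) and by 1.38 and 1.03 in 3c3 (adjusted p = 0.011 and 0.11). In Cl19 both rose to d4, by 2.05 and 1.71 (adjusted p = 5.3e-04 and 0.011). Their steps from d4 to d6 were -1.49 and -1.42 (adjusted p = 0.038 and 0.12), and on the latter probe the d4 and d6 arrays overlapped.

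Id3 rose on d2 in Cl19, and in 3c3 it was lower than on d0 on d4 and d6. The 3c3 change on d2 was -0.51 ± 0.29 (adjusted p = 0.26). In Cl19 it had 13.06, 13.03 and 13.02 on d0, 13.45, 14.40 and 14.17 on d2, 13.06, 13.36 and 12.88 on d4, and 12.49, 12.25 and 12.91 on d6. In 3c3 the levels were 13.90, 13.49 and 13.99 on d0, 13.76, 12.83 and 13.25 on d2, 13.01, 12.38 and 13.09 on d4, and 13.15, 12.06 and 12.62 on d6. The d2 arrays of Cl19 were above all its other arrays, and the d6 arrays of 3c3 were below its d0 arrays. The Cl19 rise on d2 was 0.97 ± 0.29 (n = 3 against 3, adjusted p = 0.022), or 1.25 ± 0.30 (adjusted p = 0.0049) without the array that stood apart, and the step from d2 to d4 was -0.91 ± 0.29 (adjusted p = 0.035), or -1.18 (adjusted p = 0.016) without that array. On d6 the Cl19 change was -0.48 ± 0.29 (adjusted p = 0.18), with -0.84 (adjusted p = 0.026) under scaling to the 75th percentile of each array. In 3c3 Id3 had fallen by 0.97 (SE 0.29, adjusted p = 0.014) on d4 and by 1.18 (SE 0.29, adjusted p = 0.0025) on d6. The other 2 Id3 probes fell in 3c3 (changes of -1.19 and -1.26) on d6 (adjusted p = 0.0019 and 0.0011). The d2 changes of the lines differed by 1.48 ± 0.42 (adjusted p = 0.18), and by 1.76 (adjusted p = 0.018) without Cl19 d2 replicate 1.

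**Figure D3:**
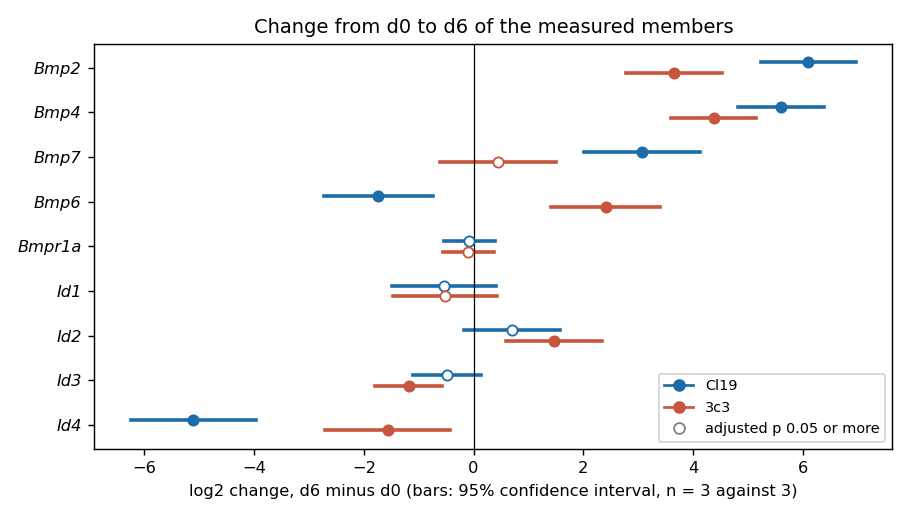
Log2 change from d0 to d6 (horizontal axis) of the 9 measured members in Cl19 and 3c3, with 95% confidence intervals of the limma fit (n = 3 against 3). Filled points passed an adjusted p of 0.05. Bmp2 and Bmp4 lie to the right in both lines, at 3.66 to 6.10, Bmp6 lies on opposite sides, and Id4 lies at -5.11 and -1.57.

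Over all 4 days 7 of the 9 members changed in Cl19 by the F-test of limma, against 54.3% of all probes tested, and 6 of 9 in 3c3, against 50%. With the slide as a block the counts were 8 and 7, by the addition of Bmpr1a in both lines (adjusted p = 0.0040 and 0.014). On d2 the count was 5 of 9 in Cl19 (Bmp2, Bmp4, Bmp6, Id3 and Id4), where 22.6% of all probes were called (the same 5 against 24.8% without replicate 1), and 2 of 9 in 3c3 (Bmp2 and Bmp4), where 19.1% were. On d4 it was 6 of 9 against 47.3% in Cl19 and 3 of 9 against 37.0% in 3c3. On d6 3 members were higher in Cl19, against 22.0% of all probes, and 2 were lower, against 30.3%. In 3c3 4 were higher, against 19.7%, and 2 were lower, against 28.6%. The share of members lower on d6, 2 of 9 in each line, was no higher than that of all probes. The median d6 change of the members was -0.08 in Cl19 and 0.44 in 3c3, beside -0.20 and -0.21 over all probes tested. The d6 changes of 4 of 9 members differed between the lines (Bmp2, Bmp6, Bmp7 and Id4), against 17.4% of all probes. The limma interaction on d2 called 0 of 9, against 0.323% of all probes. At an unadjusted p under 0.05 it called 3, and tests per probe without limma's moderation gave 0 after adjustment and 3 before. Without Cl19 d2 replicate 1 the d2 interaction called 2 members, Bmp4 and Id3, against 3.49% of all probes. On d0 1 member, Bmp6, differed between the lines, against 3.07% of all probes.

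Within slides, where d0 and d6 of 1 replicate share a glass slide, the d6 changes ran the same way in all 3 slides for every called member. The calls came from the same arrays. Uncalled changes also ran 1 way in all 3 slides for Bmpr1a and Id1 in both lines and for Id2 and Id3 in Cl19. The shared direction thus does not set the called members apart. Bmp2 rose by 5.88 to 6.54 in Cl19 and by 3.21 to 3.91 in 3c3, and Bmp4 by 5.26 to 5.93 and by 4.10 to 4.60. The Bmp6 differences ranged from -2.54 to -0.51 on the Cl19 slides and from 2.20 to 2.70 on those of 3c3. For Id4 the ranges were -5.50 to -4.88 and -1.79 to -1.26.

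The 4 Id genes were also set beside each other by 200 bases of promoter, which end 11 (Id1), 12 (Id3) or 50 (Id2 and Id4) bases before the annotated gene start, because the members of this small family did not move together. Promoter sequences came from the RefSeq table of build GRCr8, which held 8 of the 10 members. Both strands were searched for GGCGCC, which BMP Smads bind, for the Smad-binding element GTCT, and for the E-box CANNTG, which pairs of E proteins bind. These letters were found in 6.56%, 77.6% and 57.9% of all 33469 promoter windows of that length. GGCGCC was in none of the 4 Id windows, as in most of all windows. Bases further upstream were not searched, so a site there would not have been found. Whether these motifs bear on the courses of the Id genes was not tested. GTCT stood once in the windows of Id1 and Id4 and in neither of the others, and CANNTG stood once in that of Id2 and in none of the others. The windows of Id1, which passed the test in neither line, and of Id4, which fell in both, are given 5′ to 3′ with the GTCT match, on either strand, in capitals.
Id1, chr3:161671314-161671513, plus strand: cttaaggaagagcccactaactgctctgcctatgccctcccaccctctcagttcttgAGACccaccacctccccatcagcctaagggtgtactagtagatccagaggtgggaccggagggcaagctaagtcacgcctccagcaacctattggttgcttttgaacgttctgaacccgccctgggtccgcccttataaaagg
Id4, chr17:16598344-16598543, minus strand: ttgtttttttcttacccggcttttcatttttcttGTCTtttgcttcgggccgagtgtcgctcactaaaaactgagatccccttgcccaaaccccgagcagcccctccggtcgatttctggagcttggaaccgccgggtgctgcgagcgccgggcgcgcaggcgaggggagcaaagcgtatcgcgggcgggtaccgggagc

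Primary SMCs differed from the d6 cells in a member-specific way. Bmp4 stood at 11.77 on both primary arrays, higher by 3.11 ± 0.42 (n = 2 against 3, adjusted p = 1.6e-06) than in Cl19 d6 and by 3.82 ± 0.42 (adjusted p = 9.4e-08) than in 3c3 d6. Bmp2 was at 5.10 and 4.84, under every rMAPC array of d0 to d6, with differences of -7.23 ± 0.47 (adjusted p = 4.1e-11, 150.2-fold) from d6 of Cl19 and -4.58 ± 0.47 (adjusted p = 3.5e-08, 23.9-fold) from d6 of 3c3. Both ligands rose during the 6 days, Bmp4 toward the level of primary SMCs and Bmp2 away from it. Id3 was at 15.31 and 15.30, above every rMAPC array, and 2.75 ± 0.33 (adjusted p = 3.5e-07) and 2.70 ± 0.33 (adjusted p = 4.5e-07) above the d6 cells of Cl19 and 3c3.

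For several members the primary arrays lay next to 1 line on d6 by the brightest probe. Id4, at 10.77 and 10.73, differed from 3c3 d6 by -0.03 ± 0.61 (n = 2 against 3, adjusted p = 0.97, 95% confidence interval -1.31 to 1.25) and stood 4.00 ± 0.61 (adjusted p = 8.5e-06) above Cl19 d6. The second Id4 probe, at 7.73 and 7.64, lay under all 3c3 d6 arrays (8.34 to 8.82), with a difference of -0.88 ± 0.59 (adjusted p = 0.19). Id2, at 9.85 and 9.82, differed from 3c3 d6 by 0.06 ± 0.47 (adjusted p = 0.92, interval -0.93 to 1.04) and stood 1.65 ± 0.47 (adjusted p = 0.0041) above Cl19 d6. The other 2 Id2 probes differed from 3c3 d6 in opposite directions, by -0.39 ± 0.47 (adjusted p = 0.47) and 1.07 ± 0.58 (adjusted p = 0.11). On neither did the primary arrays overlap those of 3c3 d6. Both probes stood above Cl19 d6, by 1.22 and 2.64 (adjusted p = 0.028 and 4.8e-04). Bmp7, at 5.21 and 5.58, was -2.08 ± 0.57 (adjusted p = 0.0029) from Cl19 d6 and 0.33 ± 0.57 (adjusted p = 0.62) from 3c3 d6. Bmp6, well above background on 1 of the 2 primary arrays, stood at 4.56 and 3.11. It was -1.96 ± 0.53 (adjusted p = 0.0029) from 3c3 d6 and 0.10 ± 0.53 (adjusted p = 0.88) from Cl19 d6. Id1, at 9.68 and 9.73, was 1.71 ± 0.51 (adjusted p = 0.0053) above Cl19 d6 and 0.83 ± 0.51 (adjusted p = 0.15, interval -0.23 to 1.89) from 3c3 d6. Both Id1 primary arrays lay above all 3c3 d6 arrays (8.50 to 9.30), and no likeness is read from that test. Bmpr1a was lower in primary SMCs than in both lines, with differences of -0.61 ± 0.25 (adjusted p = 0.035) and -0.66 ± 0.25 (adjusted p = 0.023). Its second probe, well above background on 1 of the 2 primary arrays, differed by -1.84 ± 0.27 (adjusted p = 4.6e-06) and -2.03 ± 0.27 (adjusted p = 1.2e-06), so that the probes disagree in size. In all 8 of 9 members differed from Cl19 d6, against 71.4% of all probes, and 5 of 9 from 3c3 d6, against 71.5%. Of these, 4 members (Bmp2, Bmp4, Bmpr1a and Id3) differed from both. The 2 comparisons share the primary arrays, whose slide and scan day hold no other group, so that batch and group cannot be told apart here.

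**Figure D4:**
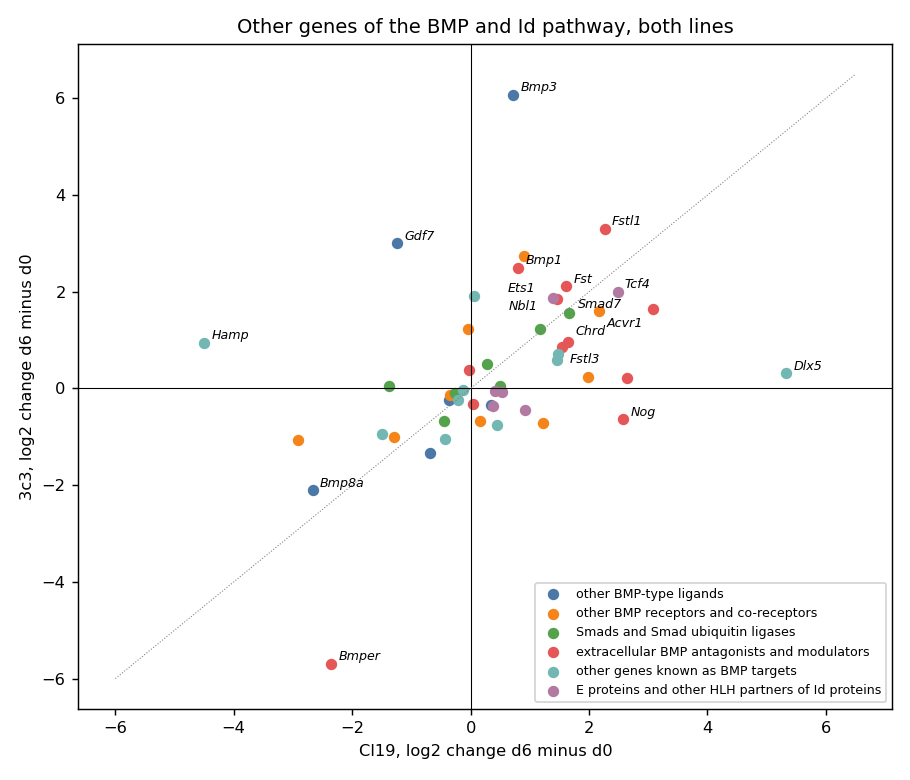
Log2 change from d0 to d6 in Cl19 (horizontal axis) against that in 3c3 (vertical axis) for the 50 tested genes of the 6 lists of other BMP and Id pathway genes, coloured by list. The dotted line marks equal changes. Named are the 12 genes with the largest mean change among those called the same way in both lines, and the genes whose changes differ by more than 3 between the lines. Bmp3, Fstl1, Dlx5 and Bmper are drawn at their fitted changes, although signals of 1 or both days were not well above background, and Hamp and Gdf7 lie on opposite sides of 0, at -4.50 and 0.95 and at -1.24 and 3.00.

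The other genes of the pathway were 63, of which 58 had a probe and 50 were tested. On d6 20 of the 50 were called higher in Cl19 and 17 in 3c3, and 8 and 5 were called lower. The shares of all probes called higher were 22.0% in Cl19 and 19.7% in 3c3, and 30.3% and 28.6% were called lower. The counts of each list below stand against these shares. In both lines 10 were higher and 3 were lower, and 4 went in opposite directions. The median changes of these genes were 0.42 in Cl19 and 0.14 in 3c3, beside the -0.20 and -0.21 of all probes.

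Secreted antagonists and modulators held the most calls. Of 12 tested, 9 rose and 1 fell in Cl19 by d6, 6 rose and 1 fell in 3c3, and the median changes were 1.58 and 0.90. Fst (follistatin) rose by 1.61 ± 0.25 (n = 3 against 3, adjusted p = 1.7e-05) in Cl19 and 2.11 ± 0.25 (adjusted p = 1.1e-06) in 3c3, and Nbl1, a ligand-binding antagonist of the DAN family, by 1.46 ± 0.26 (adjusted p = 9.8e-05) and 1.86 ± 0.26 (adjusted p = 1.0e-05). Chrd (chordin) rose by 1.65 ± 0.35 (adjusted p = 5.5e-04) and 0.95 ± 0.35 (adjusted p = 0.032), and Fstl3 by 1.55 ± 0.29 and 0.86 ± 0.29 (adjusted p = 1.6e-04 and 0.020). Bmp1, which is no BMP but the metalloprotease that cleaves chordin, rose by 0.81 ± 0.23 and 2.49 ± 0.23 (adjusted p = 0.0059 and 5.6e-08). Fstl1 rose by 2.27 ± 0.39 (adjusted p = 6.5e-05) in Cl19 and, with no d0 array of 3c3 well above background, at least 4.86-fold (adjusted p = 1.3e-06) in 3c3. Bmper, a chordin-like modulator known from endothelium, fell by 2.35 (SE 0.44, adjusted p = 1.4e-04) in Cl19 and at least 36.7-fold (adjusted p = 5.5e-09) in 3c3, where no d6 array was well above background. Nog (noggin) rose by 2.58 ± 0.34 (adjusted p = 3.4e-06) in Cl19 and changed by -0.64 ± 0.34 (adjusted p = 0.14) in 3c3, a difference with an adjusted p of 9.7e-05.

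Of the other ligands 0 of 6 tested rose and 2 fell in Cl19, whereas 2 rose and 1 fell in 3c3. Bmp8a fell by 2.67 (SE 0.35, adjusted p = 2.6e-06) in Cl19 and by 2.11 (SE 0.35, adjusted p = 5.6e-05) in 3c3. Gdf7 fell by 1.24 (SE 0.36, adjusted p = 0.0063) in Cl19 and rose by 3.00 ± 0.36 (adjusted p = 1.4e-06) in 3c3, with an adjusted p of 7.9e-06 for the difference, the same pair of directions as Bmp6. Bmp3, a ligand known to oppose other BMPs, had no d0 array well above background and rose at least 15.6-fold (adjusted p = 3.0e-08) in 3c3, while in Cl19 1 of 3 arrays was well above background on d6, and no change is given there.

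Among 9 other receptors and co-receptors tested, 3 rose and 1 fell in each line, which for the falls is under the share of all probes. Acvr1, a type I receptor that binds Bmp6 and Bmp7, rose by 2.17 ± 0.16 (n = 3 against 3, adjusted p = 2.0e-09) in Cl19 and 1.60 ± 0.16 (adjusted p = 1.8e-07) in 3c3. The type II receptor Acvr2b rose by 1.99 ± 0.19 (adjusted p = 5.5e-08) in Cl19 and changed by 0.24 ± 0.19 (adjusted p = 0.31) in 3c3, and Bmpr1b fell by 2.92 (SE 0.49, adjusted p = 4.4e-05) and changed by -1.07 ± 0.49 (adjusted p = 0.076). Of the Smads and their ligases, 2 of 7 rose and 2 fell in Cl19, with 2 rises and 1 fall in 3c3. Smad7, an inhibitory Smad, rose by 1.65 ± 0.31 (adjusted p = 1.3e-04) and 1.55 ± 0.31 (adjusted p = 3.3e-04). Smad6, an inhibitory Smad of the BMP branch and itself known as a BMP target, fell by 1.38 (SE 0.21, adjusted p = 1.6e-05) in Cl19 and changed by 0.06 ± 0.21 (adjusted p = 0.83) in 3c3, with an adjusted p of 0.0017 for the difference.

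Other known BMP targets numbered 10 tested, of which 3 rose and 2 fell in Cl19, while 2 rose and 0 fell in 3c3, again with rises near the shares of all probes. No target moved the same way in both lines past the threshold. Hamp, the hepcidin gene that Bmp6 induces in liver, fell by 4.50 (SE 0.37, n = 3 against 3, adjusted p = 8.2e-09) in Cl19 and rose by 0.95 ± 0.37 (adjusted p = 0.043) in 3c3, and the difference had an adjusted p of 8.4e-07. The directions of Hamp on d6 were those of Bmp6 in each line. On d0 Bmp6 was higher in Cl19, by 2.09 ± 0.48, whereas Hamp had means of 11.16 in Cl19 and 11.45 in 3c3. Hamp was named after its values were seen, and a link to Bmp6 was not tested. The homeobox gene Dlx5 rose at least 9.99-fold (adjusted p = 1.9e-10) in Cl19, with no d0 array well above background, and in 3c3 neither d0 nor d6 had any. Bambi, a decoy receptor, rose by 1.90 ± 0.40 (adjusted p = 5.9e-04) in 3c3 and changed by 0.05 ± 0.40 (adjusted p = 0.93) in Cl19. Of the 6 partners of Id proteins, 3 rose and 0 fell in Cl19, while 2 rose and 1 fell in 3c3. The E protein gene Tcf4 rose by 2.48 ± 0.27 (adjusted p = 3.1e-07) and 2.00 ± 0.27 (adjusted p = 7.1e-06), and Ets1 by 1.39 ± 0.23 and 1.88 ± 0.23 (adjusted p = 4.2e-05 and 1.9e-06). Tcf3 changed by 0.40 ± 0.18 (adjusted p = 0.069) in Cl19 and -0.05 ± 0.18 (adjusted p = 0.86) in 3c3.

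The genes most like Bmp4 and Id4, the ligand and the Id gene with the largest mean d6 change, were sought among 11700 other named genes by Pearson correlation of the 8 line-by-day means, as a description over points that share the normalization and the 2 courses. For Bmp4 these were Tmem63a and Adgrg6 (r = 0.997 each), Erbb3, Fhl2 and Tmsb4x (r = 0.993 each). For Id4 they were Rnaseh1 (r = 0.992), Pde4d (r = 0.990), Lamc1 (r = 0.988), Ext2 (r = 0.987) and Ptprm (r = 0.986).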

How the data were processed

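Cy3-labeled RNA from both rMAPC clones (d0, d2, d4 and d6, 3 arrays each) and from primary SMCs (2 arrays) was hybridized to Agilent rat arrays. The labels gave 9 groups, 1 for each clone and day and 1 for primary SMCs. The authors quantified the arrays with Agilent Feature Extraction 10.1.1.1 (per the submitters' processing notes) and deposited background-corrected feature intensity values per array, together with a table of log2 values that equal the log2 of those intensities.

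Here, log2 intensities of 43379 gene features were quantile-normalized, features flagged as outliers were left out, and features of a probe were averaged. limma 3.58.1 (R 4.3.3) was fitted once to all 26 arrays with a mean per group, and p-values were adjusted by Benjamini-Hochberg over 24442 probes, with a threshold of 0.05. The fit was tested on simulated data. Probe names of 9 members come from the scanner files, and other genes were also matched by accession through RefSeq (GRCr8). Genes named beside the members were those called the same way on d6 in both lines, the 12 with the largest mean change. Others named in the text (Nog, Gdf7, Bmp3, Acvr2b, Bmpr1b, Smad6, Hamp, Dlx5, Bambi and Tcf3) were chosen after their values were seen. The members and the gene lists were chosen with earlier results of these data known. The number of arrays limits the precision. Slides pair the replicate numbers of a line by the file headers, and the deviations of same-slide arrays from their group means correlated above 0.1 in 16 of 18 pairs in Cl19 and 18 of 18 in 3c3. Alternatives were the authors' log2 table, normexp background correction (offset 50), scaling to the 75th percentile, a floor for dim values or no filter on them, the slide as a block, 1 fit per line, the mean over a gene's probes, tests per probe without moderation, and leaving out arrays.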

Additional observations from a re-analysis of the deposited data

Results flagged for a closer look

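The d6 changes of 4 members differed between the lines by the limma interaction test. The difference, Cl19 minus 3c3, was 2.44 on the log2 scale for Bmp2 (adjusted p = 0.0059), with a rise in all 3 slides of both lines. It was -4.15 for Bmp6 (adjusted p = 2.0e-04), lower on d6 in 3 of 3 slides of Cl19 and higher in 3 of 3 of 3c3. It was 2.63 for Bmp7 (adjusted p = 0.014), higher in 3 of 3 slides of Cl19 and 2 of 3 of 3c3. For Id4 it was -3.54 (adjusted p = 0.0028), lower in all 3 slides of both lines. Each line is 1 clone scanned on its own day, and clone and scan day cannot be told apart.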

How the results depend on the processing

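Of 27 d6 changes and line differences of single members, 19 kept their call under every alternative, and over 963 alternative values none reversed a called direction. Many of these alternatives left out an array outside the contrast, or changed only the spread or the set of probes tested. Those could not move the estimate, so they could not reverse a direction. Signs of changes past the threshold in neither setting were not counted. Quantile normalization, which the methods also name, put the median d6 change of all probes at -0.20 in Cl19 and -0.21 in 3c3. The authors' table holds log2 intensities that were not normalized between arrays, and it put that median at 0.10 and 0.09. The share of calls that were higher moved from 42.1% to 55.7% in Cl19 and from 40.7% to 56.4% in 3c3.

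Without the slide of 3c3 replicate 3, 3 members in place of 6 changed over time in 3c3, 1 in place of 2 was lower on d6, 1 in place of 2 had changed by d2, the d6 changes of 2 in place of 4 differed between the lines, and 0 in place of 1 differed on d0. These fits had fewer samples. Tests per probe without limma's moderation, with Benjamini-Hochberg adjustment, called 1 member in place of 2 lower on d6 in each line (Bmp6 in Cl19, adjusted p = 0.078, and Id3 in 3c3, adjusted p = 0.072, were lost) and 2 in place of 5 changed by d2 in Cl19. With no filter on dim probes 1 in place of 2 had changed by d2 in 3c3. The authors' table gave 7 in place of 4 members that differed between primary SMCs and both lines, and 2 in place of 5 other pathway genes lower in 3c3. The d2 interaction called 1 member under normexp and 1 with the replicate block (slide), in place of 0. The block moved no other count of members by over 1.5 times, although it added Bmpr1a to the members that changed over time (8 in Cl19 and 7 in 3c3). The causes were not tested.

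When each array was left out in turn, the members lower on d6 numbered 2 to 3 in Cl19 and 1 to 2 in 3c3, those changed by d2 3 to 5 in Cl19 (3 without d2 replicate 2) and 1 to 3 in 3c3 (1 without any of the d0 replicates or without d2 replicate 1 or 3), those with different d2 changes 0 to 2 (2 without Cl19 d2 replicate 1), those with a different d0 level 0 to 1, and the other pathway genes lower in 3c3 3 to 7 (3 without d6 replicate 2). The d2 and pathway counts were added to the alternatives after seeing the data.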
